A study of Mus musculus with 8 samples.

Results

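The early B-cell factor (EBF) family, also called the COE family, comprises Ebf1, Ebf2, Ebf3 and Ebf4, and all 4 were present among the 28460 gene symbols of the deposited table. The genes were taken by their symbols as a named family. That family was selected on the difference between genotypes already measured in these same libraries, so the differences of its members are given below as a description, with no p-value. Their calls in the fits across all genes are counted in a single place, beside the background. All 4 members passed the filter on low counts, among 16059 genes that did. RNA-seq had been run on 8 libraries of cells from testes of mice at postnatal day 12, of mixed strain background, with 4 libraries from wild-type mice (labelled Brg1 WT) and 4 from conditional Brg1 knockout mice (labelled Brg1 cKO), called biological replicates in the series' design text. Brg1, the product of Smarca4, supplies ATPase activity to SWI/SNF, a complex that remodels chromatin. For the Cre driver and the deleted exons the sources used here give nothing. The labels call the cells spermatogenic, obtained by enzymatic digestion and sieving, and mention no marker-based sorting.

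EBF proteins are transcription factors with a zinc-binding DNA-binding domain and a helix-loop-helix region through which they form dimers. They bind a palindromic site whose core reads CCCNNGGG. Ebf1 is known for specifying B lymphocytes and for roles in fat and marrow stroma, Ebf2 for brown fat, bone and migrating neurons, Ebf3 for neurons, muscle and marrow stroma, and Ebf4 is the least studied member, described in olfactory neurons. The zinc finger proteins Zfp423 and Zfp521 bind EBF proteins and restrain them, and the E-protein Tcf3 acts with Ebf1 in B cell precursors.

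The 3 upstream sequences below show the start region of Ebf3, the member with the greatest difference between genotypes. They set it beside that of Ebf4 and beside a window before an inner start of Ebf1. Each covers 250 bases before a RefSeq transcript start (GRCm38.p6, not the mm9 build named by the submitters), read 5′ to 3′ on the strand of the gene, with every CG dinucleotide in capitals. The Ebf3 window is chr7:137314446-137314695 on the minus strand and the Ebf4 window is chr2:130295689-130295938 on the plus strand. The Ebf1 window is chr11:44619978-44620227 on the plus strand, before the second of its listed starts. The window of the first Ebf1 start lies further upstream, within an annotated exon of Ebf1. The printed Ebf1 window therefore lies inside the annotated gene and does not precede its outermost start. None of these windows shares a base with an annotated exon of its gene in GENCODE release M21.
Ebf3: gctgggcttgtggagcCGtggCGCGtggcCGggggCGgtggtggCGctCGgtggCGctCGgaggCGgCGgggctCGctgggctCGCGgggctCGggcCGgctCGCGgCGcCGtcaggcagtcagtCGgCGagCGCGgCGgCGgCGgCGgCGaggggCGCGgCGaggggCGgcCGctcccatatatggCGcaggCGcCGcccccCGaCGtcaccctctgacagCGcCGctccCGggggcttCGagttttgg
Ebf4: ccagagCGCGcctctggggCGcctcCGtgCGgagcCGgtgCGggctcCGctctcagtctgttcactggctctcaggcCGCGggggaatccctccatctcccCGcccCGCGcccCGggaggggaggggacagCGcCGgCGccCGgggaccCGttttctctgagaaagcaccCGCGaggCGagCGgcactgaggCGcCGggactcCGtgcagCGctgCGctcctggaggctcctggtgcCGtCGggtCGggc
Ebf1: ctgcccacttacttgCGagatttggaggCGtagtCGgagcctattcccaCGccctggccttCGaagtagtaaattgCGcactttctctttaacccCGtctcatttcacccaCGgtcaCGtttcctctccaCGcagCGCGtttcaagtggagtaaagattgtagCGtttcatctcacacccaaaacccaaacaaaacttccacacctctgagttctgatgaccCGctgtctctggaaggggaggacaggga

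The Ebf3 window held 43 CG dinucleotides at a G+C content of 80.0%, and 99.3% of 32851 mouse promoter windows of the same length held fewer. The Ebf4 window held 31 at 75.2% G+C, with fewer in 94.8% of windows, and the Ebf1 window held 14 at 52.0% G+C, with fewer in 70.6% of windows. The window before the first Ebf1 start, not printed, held 9 at 40.0% G+C, with fewer in 59.7% of windows. The median over all windows was 6. The EBF core CCCNNGGG, searched with N as any base (it reads the same on both strands), was found once in the Ebf3 window and not in those of Ebf4 or Ebf1, against 11.8% of all windows with at least 1 match. A match is a description of letters and was not tested for binding.

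Smarca4, the targeted gene, ranged from 337.9 to 356.6 CPM (estimated counts relative to a library total adjusted for composition) in the Brg1 WT libraries and from 110.9 to 129.2 CPM in the Brg1 cKO libraries, so every library matched its label. Library totals ran from 20456743 to 32596038 estimated counts. The edgeR quasi-likelihood test with an adjusted p threshold of 0.05 called 20.6% of tested genes, 8.79% higher and 11.8% lower in Brg1 cKO. Taking another level as no change altered this balance, from these 1412 higher and 1900 lower genes to 9663 and 477 relative to the median of 12 germ cell markers, 53 and 9326 relative to that of 12 Sertoli cell markers, and 20 and 11233 relative to that of 18 peritubular and stromal markers. Of the germ cell markers 6 were themselves called lower, and of the Sertoli cell markers 5 were called higher. In bulk samples, fewer cells of a type and less RNA per cell cannot be told apart. Germ cell markers summed to between 1791 and 2251 CPM in Brg1 WT and between 1293 and 1687 CPM in Brg1 cKO, Sertoli cell markers to between 4975 and 6519 and between 6313 and 8693 CPM, and peritubular and stromal markers to between 1742 and 2961 and between 2430 and 4020 CPM, so the libraries held RNA of somatic cells beside that of germ cells.

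Ebf3 showed the greatest difference in the family. Replicates 1 to 4 of Brg1 WT gave 22.1, 20.6, 24.8 and 18.4 CPM, and replicates 1 to 4 of Brg1 cKO gave 3.98, 6.20, 4.25 and 3.56 CPM. The groups did not overlap, and the lowest Brg1 WT library lay 2.97-fold above the highest Brg1 cKO library. Mean levels were 21.5 ± 2.70 and 4.50 ± 1.17 CPM (SD, n = 4 each), and the log2 fold change was -2.25 ± 0.18 (SE) or 4.76-fold lower. These levels rested on between 451.8 and 812.5 estimated counts per Brg1 WT library and between 72.1 and 170.3 per Brg1 cKO library. Of 16059 genes, 45 had a fold change as low as that of Ebf3 or lower, itself included.

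Ebf2 was the scarcest member and was also lower in Brg1 cKO. It measured 1.59, 2.30, 1.53 and 2.40 CPM across Brg1 WT replicates 1 to 4, compared with 0.41, 0.73, 0.80 and 0.79 CPM across Brg1 cKO replicates 1 to 4. No library of the knockout reached the level of a wild-type library, although the nearest pair were only 1.91-fold apart. Mean levels were 1.95 ± 0.46 and 0.68 ± 0.18 CPM (SD, n = 4 each), and the log2 fold change was -1.50 ± 0.28 (SE) or 2.83-fold lower. The Brg1 cKO values rested on between 9 and 20.3 estimated counts, which limits their precision. An antisense gene, Gm10860, shares 424 exonic bases with Ebf2 in the annotation and was not found by name in the table, and no source used here states whether counting used the strand. Gm45278 shares 355 exonic bases with Ebf3 in the same way.

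Ebf4 showed a small shift in the same direction. Replicates 1 to 4 of Brg1 WT gave 6.41, 7.74, 8.37 and 7.12 CPM, and those of Brg1 cKO gave 5.40, 5.98, 6.06 and 5.79 CPM. The groups did not overlap, but the gap between them was only 1.06-fold. Mean levels were 7.41 ± 0.84 and 5.81 ± 0.29 CPM (SD, n = 4 each), and the log2 fold change was -0.35 ± 0.13 (SE). That fold change turned to 0.075 when the median of the germ cell markers was taken as no change. This median was -0.43, with 6 of the 12 markers called lower. The 6 not called lay between -0.37 (Sycp3) and -0.018 (Dnd1). With the Sertoli cell and stromal medians it was -0.78 and -0.94. Ebf4 was the steadiest member within a genotype, with a coefficient of variation of 11.3% in Brg1 WT and 5.02% in Brg1 cKO.

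Ebf1 differed from the other members. It measured 10.6, 21.0, 23.7 and 19.7 CPM across Brg1 WT replicates 1 to 4, compared with 36.2, 39.0, 29.6 and 15.5 CPM across Brg1 cKO replicates 1 to 4. Brg1 cKO replicates 1 to 3 lay above every Brg1 WT library, while Brg1 cKO replicate 4 lay within the Brg1 WT range. Mean levels were 18.8 ± 5.69 and 30.1 ± 10.5 CPM (SD, n = 4 each), and the log2 fold change was 0.68 ± 0.32 (SE), which became 0.90 without Brg1 cKO replicate 4. Relative to the medians of the germ cell, Sertoli cell and stromal markers it was 1.11, 0.25 and 0.094. Ebf1 was the most variable member, with coefficients of variation of 30.3% and 34.8%, and its highest library was 2.24 times its lowest in Brg1 WT and 2.51 times in Brg1 cKO.

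**Figure D1:**
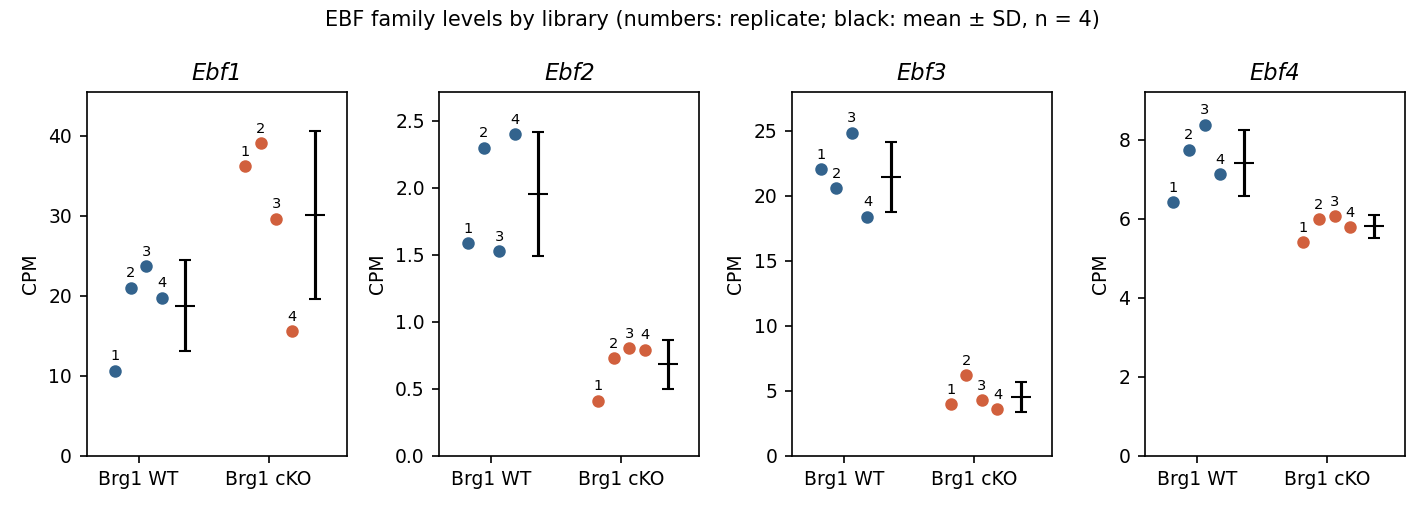
Levels of Ebf1, Ebf2, Ebf3 and Ebf4 in CPM in each of the 8 libraries, on linear axes that start at 0 and differ between panels. Points are libraries labelled with their replicate number, and black bars are the mean ± SD of the 4 libraries of a genotype. Ebf3 fills separate ranges in the genotypes, 18.4 to 24.8 and 3.56 to 6.20 CPM, whereas the Ebf1 ranges overlap at Brg1 cKO replicate 4.

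In the fit across all genes, 2 of the 4 members (Ebf2 and Ebf3) were called lower, where 11.8% of tested genes were, none was called higher, where 8.79% were, and Ebf1 and Ebf4 were not called. The libraries of the genotypes did not overlap for 3 of 4 members, all lower in Brg1 cKO, against 26% of tested genes in either direction and 15% lower. The calls depended on the setting. Without Brg1 cKO replicate 4 Ebf1 was also called higher, beside 1391 of 16311 genes. Without Brg1 WT replicates 1 and 2 only Ebf3 was called, beside 438 of 16436. Relative to the germ cell median Ebf1 was also called higher, beside 9663 of 16059 genes. Relative to the Sertoli cell or stromal median Ebf4 was also called lower, beside 9326 or 11233 genes. Since the family was chosen with this contrast in view, nothing is read from these counts.

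Levels of different genes were compared per length, as CPM divided by the median length in kilobases of the protein-coding transcripts of each gene in GENCODE release M21 (3.42 for Ebf1, 4.35 for Ebf2, 3.73 for Ebf3 and 2.67 for Ebf4). In Brg1 WT, Ebf3 had 5.76 ± 0.73 and Ebf1 5.48 ± 1.66 CPM per kilobase (SD, n = 4 each), a difference smaller than the spread of either. Ebf4 followed at 2.78 ± 0.31, between 2.40 and 3.14 in single libraries, below every Ebf1 and Ebf3 value but the 3.10 of Ebf1 in replicate 1. Ebf2 came last at 0.45 ± 0.11. In Brg1 cKO the order at the median length was Ebf1 at 8.80 ± 3.06, Ebf4 at 2.17 ± 0.11, Ebf3 at 1.21 ± 0.31 and Ebf2 at 0.16 ± 0.042 CPM per kilobase, with no overlap between neighbours. Which transcripts were counted is not known, and with the longest coding transcript in place of the median Brg1 WT had 4.30 for Ebf3 and 3.14 for Ebf1, with the shortest 11.5 and 6.55. In Brg1 cKO the longest gave 1.95 for Ebf4 and 0.90 for Ebf3. The shortest gave 2.25 and 2.41, which reversed the order of Ebf4 and Ebf3.

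At the median lengths the genotypes differed in the makeup of the family, while its summed level overlapped. Summed over the 4 members, the level per length was 14.5 ± 2.22 in Brg1 WT and 12.3 ± 3.27 CPM per kilobase in Brg1 cKO (SD, n = 4 each), with overlapping ranges of 11.8 to 17.1 and 7.84 to 15.5. Ebf3 made up 50.2%, 36.6%, 39.0% and 35.4% of that sum for Brg1 WT replicates 1 to 4 but 7.76%, 10.7%, 9.30% and 12.2% for Brg1 cKO replicates 1 to 4. Ebf1 made up 26.3% to 41.4% in Brg1 WT and 57.9% to 76.9% in Brg1 cKO. The share of Ebf4 lay between 18.4% and 20.4% in Brg1 WT and between 14.5% and 27.6% in Brg1 cKO, highest in Brg1 cKO replicate 4, where Ebf1 was lowest. Each share moves with the other members, so these are not independent measurements. Sum and shares would change with other transcript lengths, since Ebf3 at its shortest had 11.5 in Brg1 WT and 2.41 CPM per kilobase in Brg1 cKO.

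**Figure D2:**
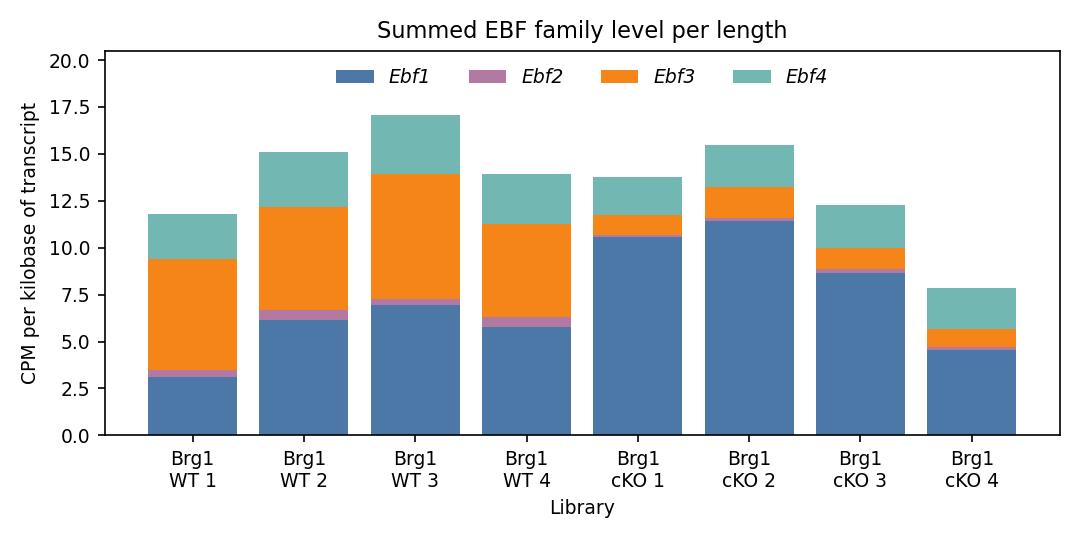
Stacked level of the 4 members per library, in CPM per kilobase of median coding transcript, with the axis starting at 0. The Ebf3 portion is 4.93 to 6.66 in Brg1 WT and 0.95 to 1.66 in Brg1 cKO, while the height of the stack overlaps between genotypes.

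The coding transcripts of the 4 genes share no run of 31 bases with one another in the annotation, so exact matches of that length cannot move counts from one member to another.

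The members were next set against the markers of peritubular and stromal cells, the contractile and fibroblast-like cells around the tubules. Over the 8 libraries these 18 markers, all of which were detected and tested, averaged 5.11, 5.79, 5.59 and 5.51 log2 CPM for Brg1 WT replicates 1 to 4, against 6.11, 6.27, 6.01 and 5.17 for Brg1 cKO replicates 1 to 4, so that Brg1 WT replicate 1 and Brg1 cKO replicate 4 were lowest, as they were for Ebf1. As a difference from that mean in the same library, Ebf1 stood at -1.69, -1.39, -1.02 and -1.21 log2 units across Brg1 WT replicates 1 to 4, compared with -0.93, -0.98, -1.12 and -1.20 across Brg1 cKO replicates 1 to 4. Its span over the 8 libraries shrank from 1.87 on the log2 CPM scale to 0.76 when set against the markers. The genotypes differed by 0.27. Leaving out single libraries gave 0.15 (without Brg1 WT replicate 1) to 0.37 (without Brg1 WT replicate 3). Without both Brg1 WT replicates 1 and 2, a setting added after seeing the data, the difference was 0.052.

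Ebf3 stood at -0.64, -1.42, -0.95 and -1.31 log2 units relative to the stromal markers across Brg1 WT replicates 1 to 4, compared with -4.09, -3.62, -3.90 and -3.31 across Brg1 cKO replicates 1 to 4. Its span grew from 2.78 to 3.45, and the Brg1 cKO mean minus the Brg1 WT mean was -2.65, without overlap. Ebf2 likewise had -4.91 to -4.20 in Brg1 WT and -7.15 to -5.37 in Brg1 cKO. For Ebf4 the groups overlapped on this scale, at -2.82 to -2.41 in Brg1 WT and -3.67 to -2.62 in Brg1 cKO, with Brg1 cKO replicate 4 highest. With endothelial, Leydig cell or Sertoli cell markers as the reference, the mean of Brg1 cKO minus that of Brg1 WT was -2.61, -2.75 and -2.71 log2 units for Ebf3 and 0.31, 0.17 and 0.21 for Ebf1.

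**Figure D3:**
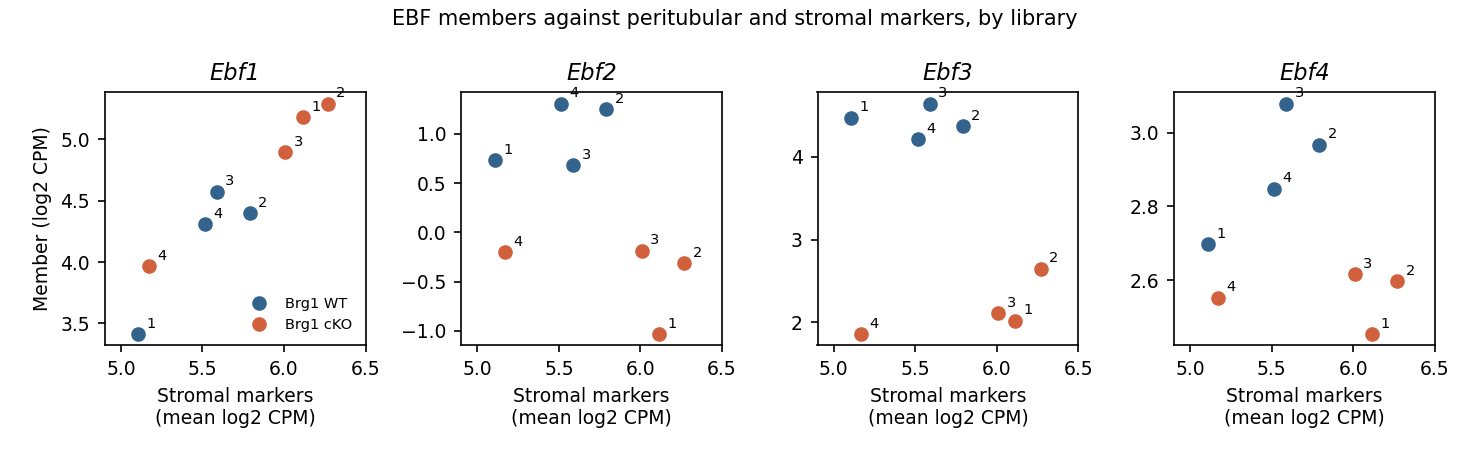
Level of each member (log2 CPM, vertical axis, scaled separately) against the mean log2 CPM of 18 peritubular and stromal markers (horizontal axis) in the 8 libraries, numbered by replicate. The Ebf1 points of both genotypes lie along a shared band, while Ebf3 has 4.21 to 4.64 in Brg1 WT and 1.86 to 2.65 in Brg1 cKO. Marker levels overlap between genotypes only through Brg1 cKO replicate 4, at 5.17, and the other Brg1 cKO libraries lie above every Brg1 WT library.

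Of the 18 peritubular and stromal markers, 3 were called higher, 1 lower and 14 were not called, and their median log2 fold change was 0.59 beside 0.013 over all tested genes. The genes called higher were Pdgfra, a growth factor receptor of stromal cells (log2 fold change 1.03, edgeR adjusted p = 0.014), Nr2f2, an orphan nuclear receptor (0.79, adjusted p = 0.048), and Mgp, a matrix protein (0.61, adjusted p = 0.049). Actg2, an actin of contractile cells, was called lower (-1.14, edgeR adjusted p = 0.0053). The other contractile markers, Acta2, Myh11, Cnn1 and Tagln, had 0.38, 0.42, -0.086 and 0.16 and were not called. All of these contractile markers lay below the list median, as did Col1a1, Col1a2, Pdgfrb and Lum. Without Brg1 cKO replicate 4, 11 of the 18 were called higher and 1 lower, and without Brg1 WT replicates 1 and 2 none was called higher and 1 lower. Over all tested genes, the first setting called 1391 of 16311 higher and 1828 lower. The second called only 96 of 16436 higher and 342 lower. Markers of other somatic cells had medians of 0.73 for pericytes, 0.52 for Leydig cells, 0.48 for macrophages and 0.37 for endothelial cells. The part of any of these cells in the levels of the members was not tested.

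Likeness to a marker list was measured as Pearson's r between a member and the mean of the list over 8 libraries. It used log2 CPM after the mean of each genotype had been subtracted. The libraries differ in depth and makeup, and all genes of a library share these. For Ebf1, r was 0.95 with the stromal list, 0.86 with the endothelial, 0.84 with the macrophage, 0.78 with the pericyte and 0.62 with the Leydig cell list, so high values were not limited to the stromal list. For Ebf3, r was 0.52 with the stromal, 0.72 with the endothelial, 0.31 with the macrophage, 0.72 with the pericyte and 0.56 with the Leydig cell list. For Ebf2, r lay between -0.53 and -0.079 over these 5 lists, and for Ebf4 between 0.083 and 0.38. With the Sertoli cell list r was -0.73 for Ebf3, -0.15 for Ebf1, 0.33 for Ebf2 and 0.087 for Ebf4. With the germ cell list the values were 0.21, -0.37, 0.15 and -0.15 in the same order.

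Likeness to single genes was measured in the same way, over 8 libraries and 13359 genes with a mean of at least 1 CPM. Symbols that begin with Gm and a digit or end in Rik were left out. The genes most like Ebf1 were Ccdc8 (r = 0.991), Atp10a (0.990), Smoc2 (0.989), Slc8a1 (0.987) and Col1a2 (0.985), of which Smoc2 and Col1a2 encode extracellular matrix proteins. For Ebf1, 244 genes had an r over 0.9, against 48 for Ebf3, 23 for Ebf4 and 16 for Ebf2. The genes most like Ebf3 were Rad51d, Rpl11, Harbi1, Klc3 and Def6 (r = 0.951 to 0.968). Those most like Ebf4 were Bhlhe40, Fam222b, Triobp, Hlf and Dnajb13 (0.942 to 0.976), and those most like Ebf2 were Klhdc3, Syncrip, Rdm1, Iars2 and Bpnt1 (0.945 to 0.981). Between members the values were low, from -0.16 for Ebf2 and Ebf3 to 0.52 for Ebf1 and Ebf4. These values describe 8 libraries, and high values arise among so many genes with so few libraries.

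Of 15 factors known to act with or beside EBF proteins, 14 were tested, and 1 was called higher, 2 lower and 11 were not called, with a median log2 fold change of -0.045 beside 0.013 over all tested genes. Ikzf3, which encodes the lymphoid zinc finger protein Aiolos, fell from a Brg1 WT mean of 1.55 ± 0.25 CPM to 0.39 ± 0.092 CPM (SD, n = 4 each), and the log2 fold change was -1.98 ± 0.26 (SE, edgeR adjusted p = 0.0025). These levels rested on only 214 estimated counts over all 8 libraries, which limits their precision. Tcf4, an E-protein, rose from 93.6 ± 13.8 to 142 ± 11.9 CPM (log2 fold change 0.60 ± 0.11 SE, edgeR adjusted p = 0.0073). Relative to the medians of the germ cell, Sertoli cell and stromal markers its fold change was 1.03, 0.17 and 0.011. Tcf3, another E-protein, fell from a mean of 160 ± 5.46 to one of 140 ± 7.44 CPM (edgeR adjusted p = 0.043), with a log2 fold change of -0.19. That value turned to 0.24 relative to the germ cell median and was -0.62 and -0.78 relative to the Sertoli cell and stromal medians.

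The restraining partners were not called. Zfp423 had 4.21 ± 1.01 and 6.17 ± 1.47 CPM in Brg1 WT and Brg1 cKO and was called higher without Brg1 cKO replicate 4, and Zfp521 had mean levels of 3.53 ± 0.88 and 3.54 ± 1.36 CPM. Tcf12, an E-protein and the most abundant of the list, had 178 ± 11.4 and 185 ± 9.69 CPM and was not called. Without Brg1 cKO replicate 4, 2 factors were called higher (Tcf4 and Zfp423) and 1 lower (Ikzf3), beside 1391 higher and 1828 lower of 16311 tested genes. Without Brg1 WT replicates 1 and 2 Tcf4 was called higher and Ikzf3 lower, beside 96 higher and 342 lower of 16436 genes.

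Genes that EBF1 activates in B cell precursors were nearly absent from the libraries. Of 13 such genes 11 did not pass the filter on low counts, among them Igll1, part of the surrogate light chain, with 3 estimated counts over all 8 libraries. The other two, Cd79a, a part of the B cell receptor, and Blnk, an adaptor beneath it, had 0.79 ± 0.11 and 2.15 ± 0.35 CPM in wild type and 0.91 ± 0.30 and 1.62 ± 0.41 CPM in the knockout, and neither was called. Pax5, the B lineage factor, had 9.74 estimated counts in all.

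Of 10 genes placed downstream of EBF factors in fat and marrow stroma, 7 were tested, with 2 called higher, none lower and 5 not called, and a median log2 fold change of 0.49. Kitl, the ligand of the Kit receptor and also a product of Sertoli cells, rose from 194 ± 28.7 to 286 ± 50.6 CPM (log2 fold change 0.56 ± 0.14 SE, edgeR adjusted p = 0.025). Relative to the germ cell, Sertoli cell and stromal medians its fold change was 0.99, 0.13 and -0.031. Lepr, the leptin receptor, rose from 2.52 ± 0.21 to 4.23 ± 1.22 CPM (log2 fold change 0.75, edgeR adjusted p = 0.037). Its log2 fold change was 0.16 with the stromal median as no change, 0.32 with that of Sertoli cells and 1.17 with that of germ cells. Cxcl12, a chemokine of marrow stroma, had 19.5 ± 3.23 and 34.5 ± 19.7 CPM and was not called over 8 libraries. Cidea, a lipid droplet protein of brown fat, had 32.7 ± 1.71 and 35.1 ± 3.52 CPM and was not called, and Ucp1, the uncoupling protein of brown fat, had 32.0 estimated counts in all and was not tested. Without Brg1 cKO replicate 4 the 2 called genes were Kitl and Cxcl12, beside 3219 of 16311 tested genes called. Without Brg1 WT replicates 1 and 2 none was called, with 3 higher at an unadjusted p under 0.05 by edgeR. That setting called only 438 of 16436 tested genes.

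Of 10 neuronal and olfactory genes tied to the family only Adcy3 and Gnal had counts enough to test. Adcy3, the adenylyl cyclase of olfactory cilia, fell from a mean of 15.4 ± 1.05 to one of 10.9 ± 1.15 CPM (log2 fold change -0.50 ± 0.11 SE, edgeR adjusted p = 0.014). Relative to the germ cell, Sertoli cell and stromal medians that fold change was -0.074, -0.93 and -1.09. Without Brg1 WT replicates 1 and 2, where 438 of 16436 tested genes were called, Adcy3 was not called. Gnal, the G protein subunit coupled to it, had 3.35 ± 0.71 and 4.29 ± 0.45 CPM and was not called. The olfactory marker Omp had 67.0 estimated counts over all libraries and Neurod1, a neuronal helix-loop-helix factor, had 19.0.

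**Figure D4:**
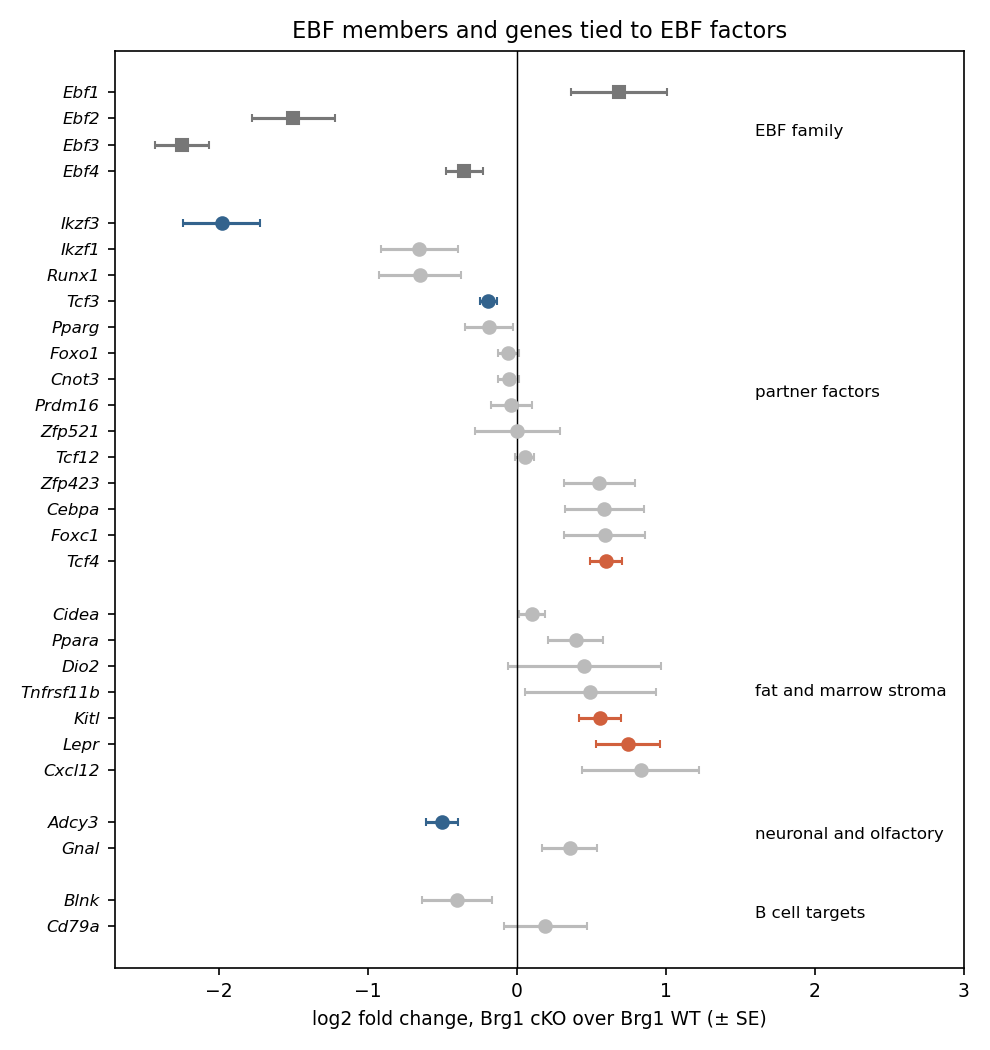
Log2 fold change of Brg1 cKO over Brg1 WT with its SE for the 4 EBF members (squares, description only) and for 25 tested genes tied to EBF factors (circles), grouped by list. Red circles were called higher, blue circles lower and pale circles were not called by edgeR over 8 libraries, and Ebf3 (-2.25) and Ikzf3 (-1.98) lie farthest to the left. Relative to the germ cell median Ebf4 and 6 of the 25 circles change sign, Tcf3 among them, relative to the Sertoli cell median 6 circles do, and relative to the stromal median 11 do, Kitl among them.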

How the data were processed

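The authors deposited estimated counts per gene symbol, not scaled for depth or length. Per the submitters' processing notes, kallisto 0.42.5 was used, alongside edgeR and the build mm9; the sources used here name no annotation. Groups and replicate numbers came from the sample titles. Counts were rounded to whole numbers (49.6% were not whole), filtered with filterByExpr, scaled by TMM and fitted in edgeR 4.0.16 (R 4.3.3) by robust quasi-likelihood with genotype as sole term, with Benjamini-Hochberg adjustment over 16059 genes and a threshold of 0.05. Log2 CPM used a prior count of 2, and the SE is the absolute log2 fold change over the square root of F. The script was tested on simulated data. No 2 libraries agreed within sampling noise (lowest chi-square per degree of freedom 20.8).

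The members, lists and alternatives were chosen with earlier results of these data known. Lists are described by counts and medians without a set test. Genes named are the members, Smarca4, called (up to 4) and the 2 most abundant genes of a list, and the 5 genes most like each member. The marker lists of testis cell types are mostly given as sums, and other listed genes were named after their values were seen. Alternatives were DESeq2 1.42.0, limma-voom (limma 3.58.1), RLE factors, no filter, at least 1 CPM in at least 4 libraries, a replicate block and leaving out each library. Leaving out Brg1 WT replicates 1 and 2, and marker medians as no change, were added after seeing the data. Promoter windows came from RefSeq (GRCm38.p6), matched by symbol for 3 of 4 members.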

Additional observations from a re-analysis of the deposited data

Results flagged for a closer look

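Of 34 groups of 4 libraries examined, 1 held a library far from the other three, where chance gives about 1 in 20. The mean log2 CPM of 9 Leydig cell markers in Brg1 cKO replicates 1 to 4 was 2.97, 3.22, 3.05 and 1.59, so that the gap below replicate 4 took 0.845 of the range, above Dixon's critical value for 4 samples. No member of the EBF family had such a library in either genotype.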

How the results depend on the processing

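Ebf1 kept a positive and Ebf2 and Ebf3 a negative log2 fold change in all 18 alternative fits, and Ebf4 was negative in 17. Moves beyond the spread between replicates came from the level taken as no change. Relative to the germ cell median Ebf2, Ebf3 and Ebf4 were at -1.08, -1.82 and 0.075. Relative to the Sertoli cell median they were at -1.93, -2.68 and -0.78, and relative to the stromal median at -2.09, -2.84 and -0.94, with Ebf1 at 0.094. Leaving out single libraries gave 0.49 to 0.90 for Ebf1, -1.59 to -1.33 for Ebf2, -2.44 to -2.15 for Ebf3 and -0.42 to -0.28 for Ebf4. Differences relative to marker lists moved by less than the spread between replicates in all 13 alternatives for each member. The 3312 genes called became 1608 to 3477 without single libraries, 438 without Brg1 WT replicates 1 and 2, and 10140, 9379 and 11253 relative to the germ cell, Sertoli cell and stromal medians.

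With the replicate block 1914 genes were called. The numbers gave no sign of pairing, since the deviations of libraries with the same number correlated at -0.32, 0.23, -0.44 and 0.22 across genes for replicates 1 to 4. Low counts limit Ebf2 most, with 9 to 20.3 estimated counts per Brg1 cKO library.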
